A study of Homo sapiens with 8 samples.

Results

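The regions described here are the places in the genome of OPM-2 myeloma cells where a chromatin immunoprecipitation peak was called with pomalidomide and with pomalidomide plus retinoic acid, but with neither the solvent nor retinoic acid alone. They were chosen by these calls themselves: peaks of the 4 lists that shared at least 1 bp were merged, and a merged region was kept when it held a peak of both pomalidomide lists and none of the other lists. Of 67328 merged regions on chromosomes 1 to 22 and X, 6464 met the rule, which is 9.6% of all. They covered 4.26 Mb. Being called or not in a list is therefore the rule and no finding, and the heights of the peaks are given as a description. The place of the regions, their neighbours and the sequence around them were not used to choose them.

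OPM-2 is an established human myeloma line, a malignant plasma cell line that carries the t(4;14) translocation. The cells were kept for 72 h in the vehicle DMSO, in 1 µM all-trans retinoic acid (ATRA), in 1 µM pomalidomide (POM), or in both at these doses (ATRA+POM), and no other allele or agent is named for any group. Each treatment had 1 chromatin library and 1 input library, so no difference between treatments can be set against a spread and no test of a treatment was made. Intervals on shares are 95% Wilson intervals that cover counting error only. The labels do not name the antibody, so what protein or mark the peaks show cannot be stated.

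The lists held 36742 to 54279 peaks. The library labelled ATRA was shallow, at 0.133 of the DMSO depth as inferred from its background values, against 0.927 for POM and 0.902 for ATRA+POM. All 12 plasma cell marker genes looked up (SDC1, TNFRSF17, CD38 and others) had a peak at their locus in each of the 4 lists. Of 10 T and natural killer cell markers, 6 had one with POM, 3 with ATRA+POM, 4 with DMSO and 3 in the list labelled ATRA.

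Pomalidomide binds cereblon, the substrate receptor of a ubiquitin ligase, and makes the ligase degrade the lymphoid transcription factors IKZF1 and IKZF3. Retinoic acid is the ligand of the retinoic acid receptors, nuclear receptors that bind DNA beside a retinoid X receptor and switch between corepressors and coactivators. Regulatory DNA falls into promoters, which lie at the starts of genes, and enhancers, which can lie far from the genes they act on and differ more between cell states.

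Few of the regions lay at gene starts, so the sequences that can be shown are those of the few that did. The promoters below are the 250 bases before a start, read 5′ to 3′ on the strand of the gene from RefSeq GRCh38.p14, and positions count back from −1 at the base before the start, with the start itself at 0. The promoters of PRSS23 (a secreted serine protease), SPRR2A (a protein of the cornified envelope of the epidermis) and CCDC198 follow the rule for named genes, since they lay under the strongest regions at a gene end. Those of S100A2 (a calcium-binding protein), IFIT3 (an interferon-induced antiviral protein) and CEACAM1 (an adhesion receptor) were chosen after their values were seen, because the region covers a motif match there. Capitals mark a match to the interferon response core GAAANNGAA or to the AP-1 motif TGACTCA on either strand.
PRSS23 (chr11:86790821-86791070, plus strand): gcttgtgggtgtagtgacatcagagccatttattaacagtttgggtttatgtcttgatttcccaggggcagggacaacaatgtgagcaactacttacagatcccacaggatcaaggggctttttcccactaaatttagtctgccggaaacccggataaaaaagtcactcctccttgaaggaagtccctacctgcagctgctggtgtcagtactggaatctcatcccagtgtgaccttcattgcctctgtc
SPRR2A (chr1:153057513-153057762, minus strand): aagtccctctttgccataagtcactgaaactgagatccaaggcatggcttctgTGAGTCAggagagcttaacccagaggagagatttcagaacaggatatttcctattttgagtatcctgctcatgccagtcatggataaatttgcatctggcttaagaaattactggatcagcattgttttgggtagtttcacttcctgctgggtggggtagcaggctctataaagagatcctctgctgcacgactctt
CCDC198 (chr14:57493858-57494107, minus strand): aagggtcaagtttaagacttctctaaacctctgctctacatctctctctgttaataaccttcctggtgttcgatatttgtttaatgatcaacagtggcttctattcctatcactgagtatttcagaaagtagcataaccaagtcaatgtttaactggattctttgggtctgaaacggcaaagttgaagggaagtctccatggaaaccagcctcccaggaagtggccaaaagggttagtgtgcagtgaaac
S100A2 (chr1:153565845-153566094, minus strand): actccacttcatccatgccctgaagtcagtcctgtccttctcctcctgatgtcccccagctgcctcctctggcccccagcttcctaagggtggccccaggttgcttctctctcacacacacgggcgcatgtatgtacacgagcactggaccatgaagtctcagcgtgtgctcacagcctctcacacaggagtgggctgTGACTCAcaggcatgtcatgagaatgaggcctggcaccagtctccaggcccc
IFIT3 (chr10:89327747-89327996, plus strand): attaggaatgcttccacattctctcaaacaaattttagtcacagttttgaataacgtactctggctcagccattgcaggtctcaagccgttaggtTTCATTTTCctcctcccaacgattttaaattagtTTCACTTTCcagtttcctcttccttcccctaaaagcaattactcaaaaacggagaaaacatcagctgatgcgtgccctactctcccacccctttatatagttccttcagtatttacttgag
CEACAM1 (chr19:42528482-42528731, minus strand): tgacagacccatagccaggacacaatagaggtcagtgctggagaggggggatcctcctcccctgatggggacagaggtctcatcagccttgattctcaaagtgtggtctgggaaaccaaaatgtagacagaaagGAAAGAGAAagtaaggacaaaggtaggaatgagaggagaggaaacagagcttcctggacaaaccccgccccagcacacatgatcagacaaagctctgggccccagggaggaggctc

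At IFIT3 the region ran from −198 to 285 and so covered both interferon response cores, at −155 to −147 and at −121 to −113. Its summit reads were 98 with POM and 30 with ATRA+POM, with no peak there in the DMSO or ATRA-labelled list. At CEACAM1 the region ran from −467 to −89 and covered the core at −116 to −108, with 84 and 73 reads. The AP-1 match of SPRR2A, at −197 to −191, lay inside a region from −798 to −152 with 448 reads with POM and 227 with ATRA+POM. That of S100A2, at −52 to −46, lay inside a region from −1246 to 439 with 257 and 56 reads. The PRSS23 region (−1040 to 1003, 267 and 222 reads) spanned the start, and the CCDC198 region (−40 to 939, 211 and 172 reads) reached only 40 bases upstream of it, and neither printed stretch holds a match. The summits of the IFIT3 and CCDC198 regions lay downstream of the start in both lists.

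Of 1558 miRNA hairpins, 2 lay under a region of the set. MIR137, a miRNA of neural tissue, lay wholly inside a region of 299 bp (chr1:98045978-98046276, 24 summit reads with POM and 38 with ATRA+POM), 103 kb from the nearest DMSO peak. The hairpin of MIR5193 lay under a region of 3216 bp (chr3:49805010-49808225) with 222 and 74 reads. The mature sequences, with both arms of MIR137, are shown with the seed, bases 2 to 8, in capitals. The seeds differ.
hsa-miR-137-3p: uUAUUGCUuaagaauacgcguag
hsa-miR-137-5p: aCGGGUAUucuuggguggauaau
hsa-miR-5193: uCCUCCUCuaccucaucccagu

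The regions were narrow and of moderate height. Fold enrichment is the authors' value within each library, not scaled between libraries. Their median width was 488 bp (10th to 90th percentile 236 to 1311, widest 5104), and 444 (6.87%, 6.28 to 7.51) were at least 1500 bp wide. In the POM list the strongest peak of a region had a median of 69 summit reads (28 to 247, highest 1730) and a median fold enrichment over the local background of 8.94 (4.58 to 23.9, highest 139). With ATRA+POM the medians were 56 reads (26 to 172, highest 1399) and 7.06 (4.10 to 17.0, highest 149). Regions called in all 4 lists were wider, with a median of 1400 bp, and higher, with median fold enrichments of 22.8 with POM and 12.5 with ATRA+POM. In most regions of the set, 5649 (87.4%), each pomalidomide list had a single peak. A smaller group of 1184 regions (18.3%, 17.4 to 19.3) had at least 100 summit reads in both lists, and 305 (4.72%, 4.23 to 5.26) had a fold enrichment of at least 20 in both.

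The 15 strongest regions, ranked by the lower of the −log10 q values of the 2 lists, all lay more than 5 kb from an annotated gene end. NFIB, which encodes a nuclear factor I transcription factor, was the nearest gene to the first of them (chr9:13973950-13976117), 107 kb away, with 1559 summit reads with POM and 1112 with ATRA+POM. The second lay 31.6 kb from PPP1R13B, a regulator of p53 (chr14:103879520-103881353), with 1350 and 926 reads. The third lay inside RP1, a gene of the photoreceptor cilium, with 1572 and 927 reads and the highest POM fold enrichment of the set, 139. Regions near MED10, a subunit of the Mediator complex (854 and 980 reads), LRRC4C (872 and 994) and H3Y1, a histone H3 variant (1214 and 828), lay 246 to 489 kb from the nearest gene end. Inside gene bodies were the regions at AIG1 (928 and 1399), THSD4 (1730 and 824) and SLC35A3, a nucleotide sugar transporter (1226 and 851). Others lay near TXNDC8 (1406 and 912), PKHD1 (982 and 748), EYA4, a transcriptional coactivator (873 and 689), KIT and PIK3CG. None of the 15 was near the calling limit in either pomalidomide list, and 13 of them lay more than 15 kb from a DMSO peak. The exceptions were KIT and PIK3CG, which are described with the edges of the rule and with the differences between the pomalidomide lists.

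**Figure D1:**
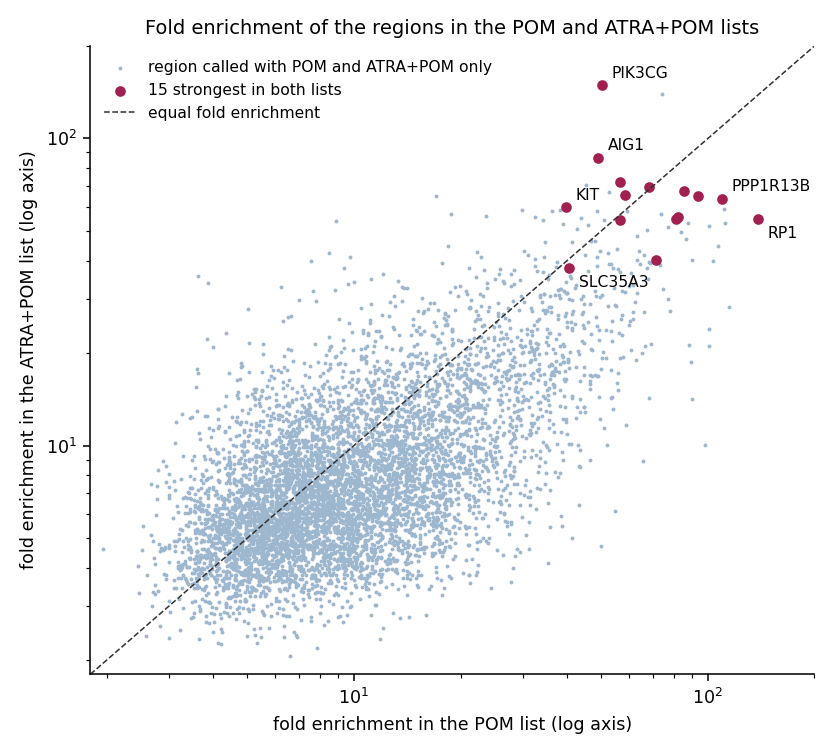
Fold enrichment of the 6464 regions in the POM list (x axis) and in the ATRA+POM list (y axis), both on log axes, with 1 point per region and the 15 strongest in red. The dashed line marks equal values. Most points lie below it, and PIK3CG stands out above it with 50.3 and 149.

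Both pomalidomide lists placed the summit of a region at nearly the same base. The distance between the POM and the ATRA+POM summit had a median of 23 bp (quartiles 8 and 54), and 73.2% were within 50 bp. In regions called in all 4 lists the median was 20 bp and the share 70.5%. Fold enrichment was lower with ATRA+POM than with POM in most regions of the set. The median log2 ratio was −0.32 (10th to 90th percentile −1.35 to 0.64) and 2150 regions (33.3%) were higher with ATRA+POM, against −0.79 and 13.4% in regions of all 4 lists. Set against regions of the same POM height this gap narrowed. The regions compared here were those called with POM, ATRA+POM and DMSO, with or without an ATRA-labelled peak. From 5-fold to 10-fold in the POM list the median was −0.16 in the set and −0.29 in these regions. Between 20-fold and 40-fold it was −0.97 and −0.95, and at 40-fold or more −1.04 and −0.98. Across the regions the Spearman correlation of the fold enrichments was 0.53 (n = 6464), given as a description, since the points share 2 libraries.

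**Figure D2:**
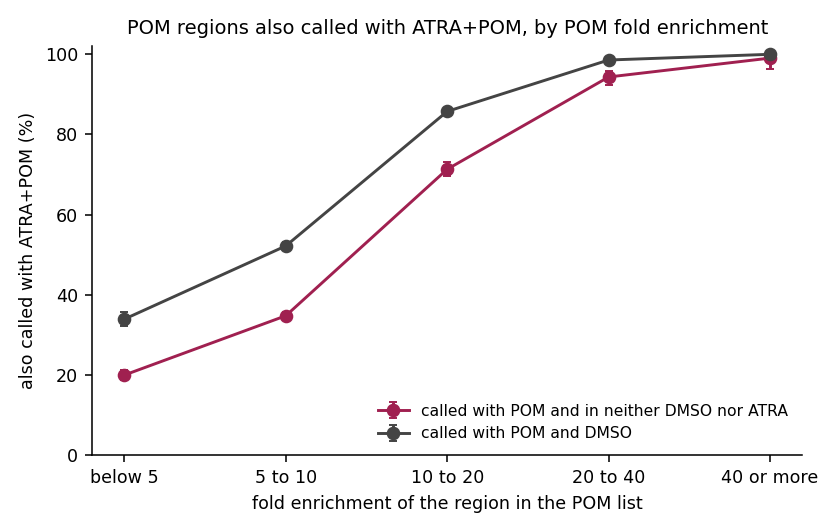
Share of POM regions that were also called with ATRA+POM (y axis, percent) in 5 ranges of POM fold enrichment (x axis), for regions in neither the DMSO nor the ATRA-labelled list (red) and regions also called with DMSO (grey), with 95% Wilson intervals. Both lines climb from below 40% to above 98%.

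How often a POM region without DMSO or ATRA peak was called again with ATRA+POM depended on its height. Under a POM fold enrichment of 5 this was 20.0% (18.9 to 21.2) of 4530 regions, from 10 to 20 it was 71.3% of 2643, from 20 to 40 it was 94.3% of 768, and at 40 or more 194 of 196. POM regions that DMSO also called went from 33.9% to 99.9% over the same ranges. The weak end of the set is thus a minority of the weak POM regions, and its strong end holds nearly all of the strong ones.

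Some regions departed from the common ratio. PIK3CG encodes the catalytic subunit of a phosphoinositide 3-kinase of leukocytes. A region 5.91 kb outside this gene was the one with the highest ATRA+POM fold enrichment of the set (chr7:106857907-106860847), with 50.3 and 718 reads with POM and 149 and 1391 reads with ATRA+POM. Among regions with at least 100 reads in both lists, and chosen for their ratio, a region inside ABCC8, the sulfonylurea receptor, had fold enrichments of 7.68 with POM and 31.8 with ATRA+POM. SLC22A5, a carnitine transporter, had 17.0 and 65.1. In the other direction HRH1, the histamine H1 receptor, had 90.3 with POM and 14.2 with ATRA+POM, and a region near FFAR2, a receptor for short-chain fatty acids, had 58.8 and 11.7. With 1 library each these ratios have no replicate check.

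The edge of the rule matters for single regions. On the inner side, 90 regions (1.39%) had a DMSO peak within 100 bp and 684 (10.6%) within 1000 bp, and the median distance to the nearest DMSO peak was 23.6 kb (quartiles 6.21 and 64.5). The strong region 60.3 kb from KIT, a receptor tyrosine kinase, is 1 of those just inside: it had 831 and 866 reads and a DMSO peak 147 bp away. The regions at CRBN, which encodes cereblon, and at PRDM1, the plasma cell repressor BLIMP1, lay 42 and 77 bp from a DMSO peak. On the outer side, 685 of the 5805 regions called with DMSO, POM and ATRA+POM had a POM fold enrichment at least 4 times that of DMSO. In a region 217 kb from CITED2, a coactivator of CREBBP and EP300, the values were 118 with POM, 112 with ATRA+POM and 4.54 with DMSO (1758, 1709 and 53 reads). Inside GRID1, a glutamate receptor subunit, they were 93.6, 43.5 and 3.34. Depth bears on the ATRA side of the rule. Brought down to the depth of the library labelled ATRA, the POM reads of 2945 regions (45.6%, 44.3 to 46.8) would exceed the 10th percentile of summit reads in its list. For the rest, the POM reads brought down in this way would not exceed that percentile. It is 11 reads and no detection limit, since the lowest summit called in that list has 5. Scaled to the DMSO depth, 6020 (93.1%, 92.5 to 93.7) would exceed the 10th percentile of DMSO peaks. Only 14 regions with both pomalidomide peaks were kept out by an ATRA-labelled peak alone.

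Most of the regions lay away from the ends of genes. Only 180 had their midpoint within 1000 bp of where RefSeq begins or ends a protein-coding gene (2.78%, 2.41 to 3.21). The share was 33.7% (33.0 to 34.4) in regions called in all 4 lists, 30.8% (29.5 to 32.1) in those called with DMSO and POM only, and 6.59% (6.12 to 7.11) with POM only. For the mirror image of the set, regions of only the DMSO and ATRA-labelled lists, it was 5.38% (4.60 to 6.28). Regions called with ATRA+POM only had 2.70% (2.21 to 3.29), which overlaps the interval of the set. The median distance of a midpoint to a gene end was 51.4 kb, against 5.94 kb for regions of all 4 lists and 49.1 kb for the mirror set.

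**Figure D3:**
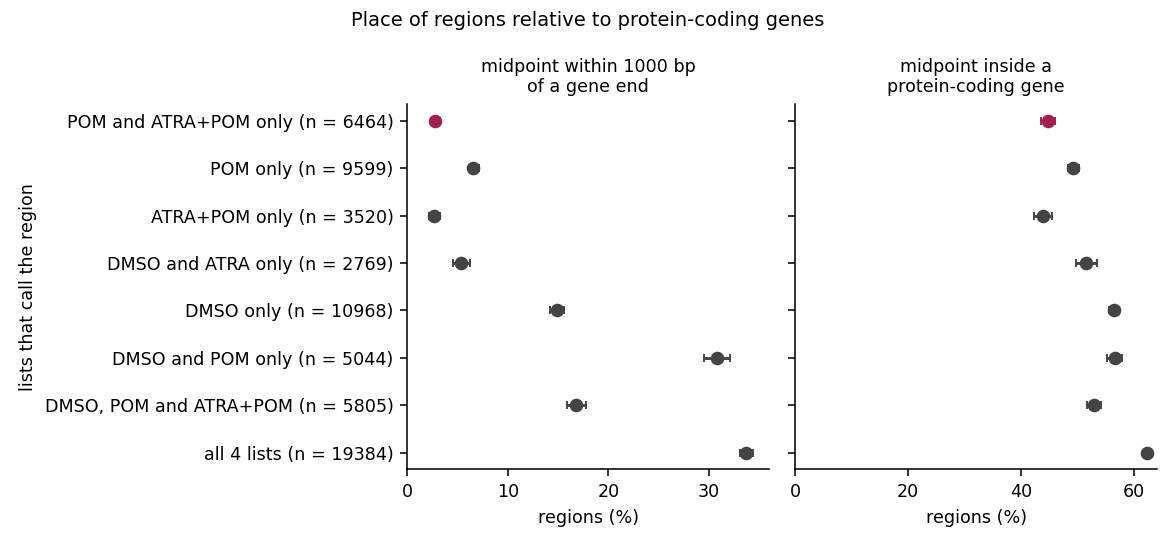
Share of regions (x axes, percent) with the midpoint within 1000 bp of an annotated gene end (left) and inside a protein-coding gene (right), for regions grouped by the lists that call them (y axis, with the number of regions), with 95% Wilson intervals. The set called with POM and ATRA+POM only (red) stands at 2.78% and 44.8%, and regions of all 4 lists at 33.7% and 62.4%.

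Gene bodies of protein-coding genes held 2899 midpoints (44.8%, 43.6 to 46.1), fewer than in any set of regions shown except those of ATRA+POM only (43.9%, 42.3 to 45.6). A further 946 (14.6%, 13.8 to 15.5) lay inside a long noncoding RNA gene alone, against 10.8% (10.4 to 11.3) in regions of all 4 lists. The remaining 2619 (40.5%) lay in neither. In 5 equal groups by the lower −log10 q, the strongest had the lowest share inside protein-coding genes, 38.1%, against 44.6% to 45.8% in the 3 groups between. From the weakest to the strongest group the median distance to the nearest DMSO peak went from 17.8 to 29.2 kb. By chromosome the set made up between 5.38% (4.49 to 6.43) of all regions on chromosome 19, the lowest, and 10.9% (9.86 to 12.1) on chromosome 9. Regions called with DMSO and POM only had the opposite extreme on chromosome 19, at 12.3% there.

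Only 165 of 19970 protein-coding genes (0.826%) were the nearest gene of a region at a gene end. The strongest such region lay at IKBKE, a kinase of interferon and NF-κB signalling (chr1:206494804-206497040), with 824 summit reads with POM and 562 with ATRA+POM. PPP1R14D, an inhibitor of protein phosphatase, had 438 and 337 reads, KDM3A, a histone H3 lysine 9 demethylase, 327 and 455, and PFDN4, a subunit of prefoldin, 384 and 266. At SLC43A3, a nucleobase transporter, the region had 410 and 186 reads and lay 14 bp from the gene end, with a DMSO peak 126 bp away. IDO1, the tryptophan-degrading enzyme, had 242 and 358 reads. With KDM3A it was 1 of the pair among the 12 strongest at a gene end with a higher fold enrichment in the ATRA+POM list. MFSD8 (380 and 188), SPECC1 (400 and 141), SPRR2A, PRSS23, CCDC198 and TMEM101 (169 and 121) complete the 12.

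RefSeq promoter windows, from 250 bases before to 50 after a start, gave the same picture with strand known. A region of the set overlapped the window of 145 of 27195 genes (0.533%), of which 82 were protein-coding (0.519% of 15811) and 63 long noncoding (0.553% of 11383). For the 19384 regions of all 4 lists the shares were 37.3% of protein-coding and 13.0% of noncoding genes. For the 2769 regions of the mirror set they were 0.544% and 0.211%. These shares are not scaled to the number of regions, and a larger set can overlap more starts. The overlapped starts were poor in CpG. The 150 windows of the set had a median GC content of 49.2% and a median of 4 CpG, all 34961 windows 58.7% and 14, and those under regions of all 4 lists 64.3% and 26. Only a part of many windows lay under the region, with a median of 161 bases of 300. Among the noncoding starts, the strongest was that of LOC105379208, with fold enrichments of 74.2 with POM and 139 with ATRA+POM, and that of EPCAM-DT had 36.0 and 27.1. PLAC1, a placental gene on the X chromosome, had the strongest region in the promoter window of a protein-coding gene, with 1355 and 466 reads, although the region ended before the start and its summits lay at −1479 and −1467. It was followed by PRSS23 and by HAVCR1, a phosphatidylserine receptor (161 and 152). LOC105379208, EPCAM-DT, PLAC1 and HAVCR1 were picked after their values were seen.

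Of 27 motifs searched on both strands of the promoter windows, the interferon response core GAAANNGAA was in 25 of 150 windows (16.7%, 11.6 to 23.4), against 8.11% of all windows and 6.77% of those under regions of all 4 lists. In 14 of the 25 a match lay inside the region itself. The AP-1 motif TGACTCA was in 15 windows (10.0%, 6.15 to 15.8), against 4.92% and 2.86%, with a match inside the region in 7. The Ikaros core TGGGAA was in 53 (35.3%, 28.1 to 43.3), against 24.0% and 22.5%, and the MAF recognition core TGCTGA in 40 (26.7%, 20.2 to 34.3), against 17.3% and 12.6%. Other motifs were also more frequent than in all windows: RUNX TGTGGT in 33 windows (16.1 to 29.3%, against 13.1%), ETS GGAAGT in 50 (26.3 to 41.2%, against 22.8%), the E-box CAGCTG in 41 (20.8 to 35.0%, against 18.0%), the ETS-IRF composite GGAANTGAA in 8 (2.73 to 10.2%, against 1.86%) and GGAAGGAA in 11 (4.14 to 12.7%, against 3.67%). The nuclear receptor core AGGTCA was in 25 (16.7%, 11.6 to 23.4), against 13.8% and 9.79%, an interval that holds the share of all windows. The GC-rich SP/KLF motif GGGCGG was in 39 (26.0%, 19.6 to 33.6), against 45.0% and 67.7%. Base composition differs between these groups of windows, as given above, and its part in the shares was not tested. The ETS motif GGAAGT and the interferon core can share bases. A match is a run of letters and no sign of a bound factor.

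Some of the regions came in groups. Of the 6464, 1110 (17.2%, 16.3 to 18.1) had at least 2 others of the set within 25 kb. Regions of all 4 lists were grouped more often, at 31.8% (31.1 to 32.4), and the 3520 called with ATRA+POM only at 16.1% (upper bound 17.4), an interval that overlaps that of the set. Lower shares were 6.72% (6.10 to 7.39) of 5805 regions called with DMSO, POM and ATRA+POM, 7.32% (6.63 to 8.07) of 5044 called with DMSO and POM only, and 5.38% (4.60 to 6.28) of the 2769 of the mirror set. When peaks up to 500 bp apart counted as 1 region, the set and these last 3 became 6.48% (5.83 to 7.19), 1.48% (1.16 to 1.89), 1.64% (1.22 to 2.20) and 0.667% (0.398 to 1.12), so the level depends on how close peaks are joined, while the set stayed above these last 3. Regions called with POM only were also above the set, at 25.4% and 7.80%. Regions called with DMSO only changed places with the set, at 18.4% without joining and 3.52% with it. A larger set has more neighbours by number alone. Linked at 25 kb, 3522 regions stood alone, 888 chains held 2, 289 held 3 or 4, and 39 chains held 5 or more, with 234 regions in them.

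The longest chain lay inside HDAC5, a class IIa histone deacetylase that represses MEF2 targets (chr17:44076753-44123641). It had 15 regions of 331 to 976 bp within 18.0 kb of the low-coordinate side of the gene body. The POM peaks had 50 to 157 summit reads (median 94) and fold enrichments of 10.2 to 43.2 (median 20.4). The ATRA+POM peaks had 25 to 76 reads (median 41) and 3.60 to 12.1 (median 6.69). In all 15 the fold enrichment was lower with ATRA+POM. Whether these narrow regions coincide with exons of HDAC5 was not tested, since exon coordinates were not used here, and peaks at the gene itself cannot be told apart here from reads of a cDNA copy of it. Neither the DMSO nor the ATRA-labelled list had a peak in the 18.0 kb, while the far end of HDAC5 carried a peak in each list. That peak had 717 reads with DMSO, 273 with POM, 156 with ATRA+POM and 98 in the shallow ATRA-labelled library.

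**Figure D4:**
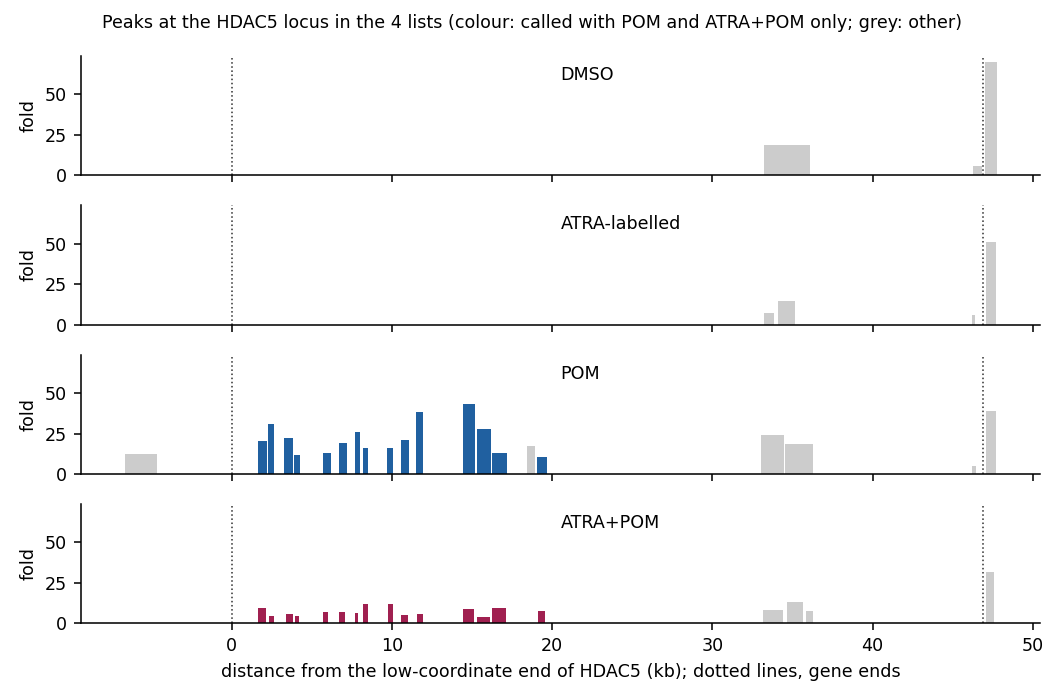
Peaks at the HDAC5 locus in the 4 lists, with the distance from the low-coordinate end of the gene in kb (x axis) and the fold enrichment of each peak (y axis, bar height; bar width is the peak). Coloured bars belong to the 15 regions called with POM and ATRA+POM only, which lie between 1.62 and 19.7 kb, and grey bars to other regions.

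Other chains were less dense. HAVCR1 and HAVCR2 (the checkpoint receptor TIM-3) share a chain of 11 regions over 84.2 kb on chromosome 5, with 21 to 161 reads with POM and 24 to 152 with ATRA+POM. Within its span, near HAVCR2, lay a region just outside the rule, with fold enrichments of 76.6, 42.5 and 3.49 with POM, ATRA+POM and DMSO. A chain of 10 regions lay 151 kb or more from TLE3, a corepressor of the Groucho family. One of 8 began over the start of PKHD1 and ran away from the gene body. Chains of 7 lay inside METTL9, near TOX3 and near YJU2B. The chains at TOX3 and YJU2B, like those near MED10 and inside TLN2 with 6 regions each, held no DMSO and no ATRA-labelled peak.

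Counted by locus, the gene body with 5 kb on both sides, 2108 of 19970 protein-coding genes (10.6%) held a region of the set, 711 held at least 2 and 71 at least 5. The count followed gene length. In 4 equal groups from the shortest to the longest genes the shares were 2.56%, 4.57%, 9.23% and 25.9%, and the median length was 97.9 kb for genes with a region and 24.2 kb for all. After HDAC5, the genes with the most regions were LRRC4C, PTPRD (a receptor tyrosine phosphatase) and KCNMA1 (a potassium channel) with 11 each, ASTN2 and KCNIP4 with 10, and ATP2B2 (a calcium pump), DAB1, MAN1C1, ROBO2 and WWOX with 9. CACNA1D, a calcium channel, had 8. The 3 shortest of these are HDAC5 with 46.9 kb, MAN1C1 with 168 kb and CACNA1D with 319 kb. MAN1C1, a mannosidase of the Golgi, had 6 DMSO peaks and 18 POM peaks.

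**Figure D5:**
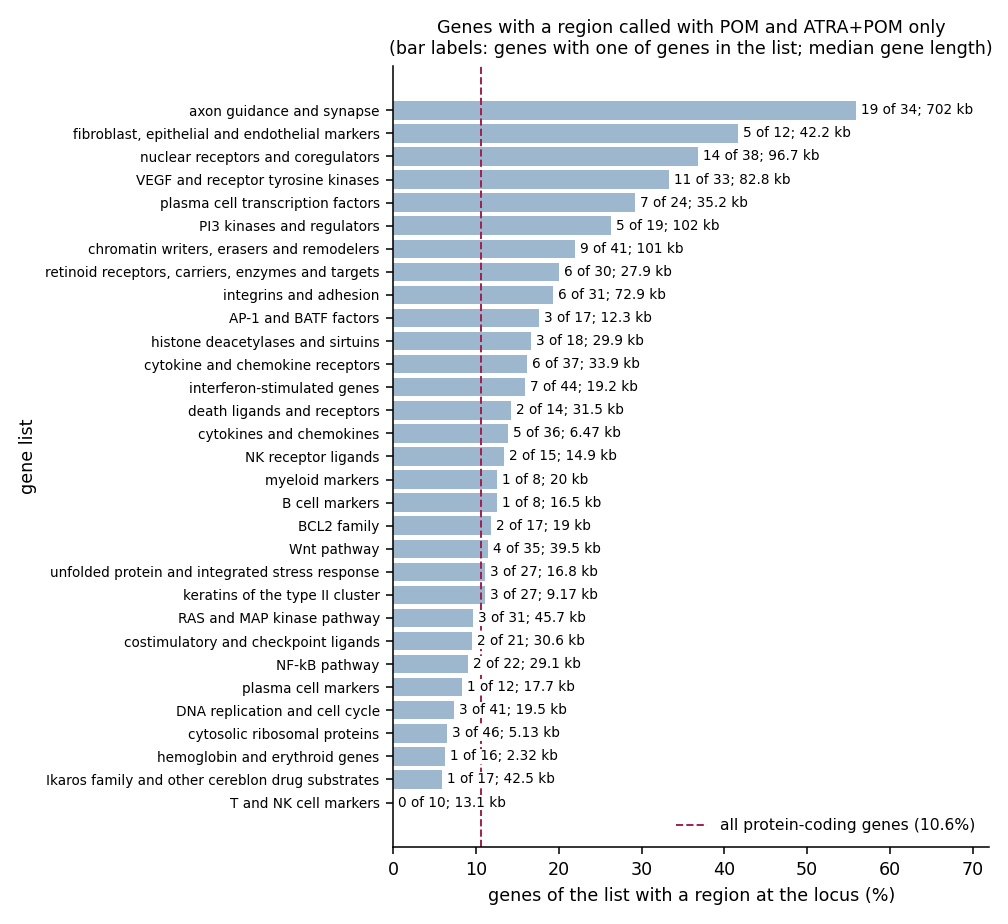
Share of the genes of 31 lists (y axis) with a region of the set at the locus (x axis, percent), labelled with the counts and the median gene length. The dashed line is the 10.6% of all protein-coding genes, and the highest bar, 19 of 34 axon guidance and synapse genes, belongs to the list with the longest genes (median 702 kb).

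Retinoid genes were examined because ATRA is 1 of the agents compared. Of 30 receptors, carriers, enzymes and targets, 6 held a region (20%, against 10.6% of all genes). The median length of the list is 27.9 kb, in the group of length where 9.23% had one. Of the 6, RARB and NRIP1 fall in the longest group, where 25.9% had one, and RARG in the group where 4.57% did. DHRS3, a retinal reductase that retinoic acid induces in many cells, had 4 regions and no DMSO or ATRA-labelled peak at its locus. Their POM fold enrichments were 11.7, 4.42, 9.33 and 5.41 (39, 24, 58 and 26 reads), and with ATRA+POM 14.6, 8.72, 17.5 and 7.84 (72, 34, 105 and 38 reads). All 4 were higher with ATRA+POM, where 33.3% of the set was. That share is not matched for POM height. In the set the median log2 ratio was 0.32 below 5-fold, −0.16 from 5-fold to 10-fold and −0.72 from 10-fold to 20-fold. Of the receptor genes, RARB had 3 regions among 18 DMSO peaks, with 94, 57 and 57 reads with POM and 61, 86 and 89 with ATRA+POM. RARA had 2 (58 and 37 reads with POM, 37 and 36 with ATRA+POM), the first of which lies inside the neighbouring CDC6 and counts for both genes, and RARG 2 (64 and 22, 36 and 20). TGM2, a transglutaminase induced by retinoic acid, had 1 with 110 and 111 reads and no DMSO peak at the locus. NRIP1, a corepressor of nuclear receptors, had 1 (36 and 57). CYP26A1, the enzyme that clears retinoic acid, had none. In the wider list of nuclear receptors and coregulators 14 of 38 held a region, with a median length of 96.7 kb, in the length group where 25.9% did. ESRRG, an orphan receptor, and ESR1, an estrogen receptor, had 3 each, and NR1H2, an oxysterol receptor, had 2.

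Of 17 genes of the Ikaros family, cereblon and other substrates, CRBN itself was the one with a region (5.88%, against 10.6% of all genes, a share near it in so short a list). It is the one beside a DMSO peak named above (33 and 50 reads). IKZF1, IKZF3, IRF4, MYC and XBP1 had none, nor did NSD2 and FGFR3, the genes at the t(4;14) breakpoint. Among 24 plasma cell transcription factors 7 had a region (29.2%, against 10.6% of all genes). TCF4 had 3, BACH2 2 (113 and 72 reads at the stronger), and RUNX1, EBF1, KLF4, MEF2C and PRDM1 1 each. The median length of the list is 35.2 kb, in the group of length where 9.23% had one. Of the 7, all but KLF4 fall in the longest group, where 25.9% had one. KLF4, a Krüppel-like factor of quiescent B cells, had no DMSO peak at its locus, and its region had 63 and 29 reads. Of 17 AP-1 and BATF factors 3 had a region (17.6%, against 10.6% of all genes). MAF had 3 regions, the strongest with 262 and 219 reads, BATF2 had 3 and no DMSO peak, and BATF had 1. The median length of this list is 12.3 kb, in the group of length where 4.57% had one, while MAF falls in the longest group.

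Interferon-stimulated genes held a region at 7 of 44 loci (15.9%, against 10.6% of all genes). Their median length is 19.2 kb, in the group of length where 4.57% had one. Of the 7, RIGI and DDX60 fall in the longest group, where 25.9% had one, and OAS1 and PARP9 in the group where 9.23% did. IFI6 falls in the shortest, where 2.56% did. RIGI, a sensor of viral RNA, had 244 reads with POM and 128 with ATRA+POM, GBP5, a guanylate-binding protein, 150 and 111, DDX60 171 and 66, and IFI6 119 and 69, and all 4 had no DMSO peak at the locus. IFIT3, with 3 DMSO peaks and 1 ATRA-labelled peak at its locus, had a second region 2.84 kb inside the gene with 205 and 177 reads, 0.492 kb from a DMSO peak. OAS1, a sensor that makes oligoadenylates, had 81 and 68, and PARP9 49 and 21, the latter 0.101 kb from a DMSO peak. Fold enrichment was lower with ATRA+POM in the strongest region of 6 of the 7, the exception being IFIT3 (15.9 with POM and 16.9 with ATRA+POM). The promoter window of IFI6 holds 3 interferon response cores and was overlapped by only 3 bases, and that of TNFSF10 holds 2, which lay outside the region.

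Lists of genes of signals between immune cells held regions at 9.52% to 16.2% of their genes, against 10.6% of all genes. The median length of the cytokine and chemokine genes is 6.47 kb, in the group of length where 2.56% had a region. The other lists of this paragraph have medians of 14.9 to 33.9 kb, in the groups where 4.57% and 9.23% did. Cytokines and chemokines had 1 region each at 5 of 36 genes (13.9%), all without a DMSO peak at the locus. Such a lack was common in this list, where only 9 of the 36 genes had a DMSO peak. IL26 had the widest gap between the lists, with fold enrichments of 3.87 with POM and 33.9 with ATRA+POM (62 and 312 reads), CCL2 had 104 and 40 reads, IL6 31 and 29, CXCL12 25 and 33, and CSF2 28 and 21. Among their receptors 6 of 37 (16.2%) had one, led by CXCR3 (128 and 66), whose region lay 0.256 kb from a DMSO peak. Of costimulatory genes CD40, the receptor of B cells for T cell help, had 2 regions at its end (83 and 85 reads at the stronger). TNFSF4 had 2, the stronger 0.079 kb from a DMSO peak. MICA (63 and 23) and CLEC2D (511 and 255) were the 2 of 15 ligands of natural killer receptors, and FASLG (288 and 89) and TNFSF10 (49 and 45) the 2 of 14 death ligands and receptors. 

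Receptor tyrosine kinases and vascular factors held regions at 11 of 33 genes (33.3%, against 10.6% of all). Their median length is 82.8 kb, in the longest of the 4 groups of length, where 25.9% had one. KDR, a receptor for VEGF in blood vessels, had 2 next to each other outside its low-coordinate end, with 603 and 420 reads with POM, 261 and 164 with ATRA+POM, and no DMSO peak. CSF1R, the receptor of the macrophage growth factor, and KIT had 2 each and no DMSO peak, and EPHA2 had 1 (132 and 43). MERTK had 2, the stronger with 73 and 66 reads. Of 19 phosphoinositide 3-kinase genes, PIK3CG had 6 regions and INPP4B, a phosphatase, 5. In 5 of the 6 at PIK3CG the fold enrichment was higher with ATRA+POM. Keratins of the type II cluster had 3 of 27 (11.1%, near the 10.6% of all genes), led by KRT80 with 482 and 197 reads and no DMSO peak. The median length of the keratin genes is 9.17 kb, in the group of length where 4.57% had one.

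The list with the longest genes had the highest share. Axon guidance and synapse genes held a region at 19 of 34 loci, with 65 regions in all, PTPRD with 11, ROBO2 with 9, PLXNA2 with 8 and GRIK2 with 7. Of the list's 24 genes of at least 300 kb, 13 had one, and of all 771 protein-coding genes of that length 52.3% did. Lists of short housekeeping genes had 3 of 41 replication and cell cycle genes (BUB1, CCNA2 and CDC6) and 3 of 46 ribosomal protein genes. These are 7.32% and 6.52%, against 10.6% of all genes, and the median lengths are 19.5 and 5.13 kb, in the groups of length where 4.57% and 2.56% of genes had a region. Marker genes of fibroblasts, epithelium and endothelium had one at 5 of 12 loci (41.7%, against 10.6% of all genes). These were KDR, CDH1, CDH5, COL1A2 and PECAM1, of which CDH1 and PECAM1 also had DMSO peaks. Those of plasma cells had one at 1 of 12, those of B cells at 1 of 8, of myeloid cells at 1 of 8 and of T and natural killer cells at 0 of 10. In the list of fibroblast, epithelial and endothelial markers, 7 of 12 loci had any peak with POM, 6 with ATRA+POM and 2 in each of the other lists. A locus with a region has a peak in both pomalidomide lists by the rule, so these counts are not independent of it. Whether other cells were present was not tested.

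Some loci with a region had no DMSO peak at all. Of the 2108 genes, 378 had no DMSO peak within the body and 5 kb on both sides, and their median length was 38.2 kb. The share of all protein-coding genes without a DMSO peak is not given here, so whether 378 is many or few cannot be said. The regions themselves lack a DMSO peak by the rule. PARVG, an actin-linked integrin adaptor of blood cells, had 5 regions, the strongest with 296 reads with POM and 230 with ATRA+POM. Those with 4 were RP1, CTNND1 (p120 catenin, 225 and 202 at the strongest), VSIG4 (a complement receptor of macrophages, 233 and 164), BRINP2, MYL1, DEPP1, BRINP1, FLRT2, DHRS3 and SDK1. DEPP1, a gene induced by FOXO factors, had its 4 in or beside a body of 2682 bp, 99 and 78 reads at the strongest, and 1 of them over its start.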

How the data were processed

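Chromatin immunoprecipitation libraries of OPM-2 cells, 1 per treatment, were used as 4 peak lists called per library. Samples were grouped by the treatment in their titles. The 4 input libraries were not used beyond what the lists hold. Per the submitters' processing notes the build was hg38. Not given in the sources used here are the aligner, the peak caller, their versions, the depth and the antibody.

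A score in the deposited lists is its −log10 p multiplied by 10 and truncated. The authors' fold enrichment is a ratio of reads at the summit to a background estimated near it. Each −log10 p and −log10 q is likewise the authors'. Fold enrichment was not scaled between libraries. Assuming a Poisson caller that adds 1 to both terms of the ratio, summit reads were solved from the fold and the p, and came out whole within 0.02 for 100.0% of DMSO, POM and ATRA+POM peaks and for 99.99% of ATRA-labelled peaks. Relative depth is the lowest background value that occurs at least 20 times, per base of the smallest peak. Both are inferences from the values.

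Peaks sharing at least 1 bp were merged, and the strongest peak of a list by −log10 q stands for it in a region. Genes came from RefSeq GRCh38.p14, whose gene table has no strand. The gene table and the files share the build but for patches. Promoter windows cover 15811 of 19970 protein-coding genes. No genome was used, so the planned sequences of the strongest regions and motif search around summits were not made, and promoter windows were searched instead, a choice made after the files were seen.

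The set, the gene lists, the motifs and the rule for named genes were chosen with earlier results of these data known. The rule names the 12 genes with the most regions, the 15 strongest regions, the 12 strongest at a gene end, up to 4 genes per list and 14 fixed genes. Other names were chosen after their values were seen. A few genes that the rule names are not reported here. No test was made, since each treatment has 1 library, and shares carry Wilson intervals. The alternatives took an equal number of peaks per list, the stronger 50%, a fold enrichment of at least 10, joining at 500 bp or at 50% overlap, leaving out the ATRA-labelled list, and other windows. The merging, counting and read recovery were tested on simulated data, where 2983 of 2983 summits were recovered. Tools were matplotlib 3.10.9, pandas 2.3.3, scipy 1.17.1 and numpy 2.4.6 under Python 3.11.15.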

Additional observations from a re-analysis of the deposited data

How the results depend on the processing

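Of 32 recomputed values, 22 stayed within their interval or, for counts, within 1.5 times, and none could reverse, since each is a count or a share. The number of regions, 6464, was 3761 with the stronger 50% of each list and 2952 with a fold enrichment of at least 10. The share at a gene end, 2.78%, was 3.86% and 5.25% under the same settings, and 6.88% with windows of 3000 bp on each side. The share with at least 2 others within 25 kb, 17.2%, was 7.92% with the stronger 50%, 13.1% with 36742 peaks from each list, 5.93% with a fold enrichment of at least 10 and 6.48% with peaks joined at 500 bp. The number of genes with a region at the locus, 2108, was 1261 with a fold enrichment of at least 10. With fewer peaks in a list fewer regions can be called and fewer neighbours lie near, while a weak DMSO peak left out lets its region into the set. The share inside protein-coding genes, 44.8%, lay between 44.4% and 44.9% under each of 6 settings. Leaving out the ATRA-labelled list gave 6478 regions. The planned search of 50 bp windows around summits was not run. No paired analysis was possible because each treatment has 1 library. Depth limits the ATRA-labelled list, with a median of 23 reads at a summit, and nothing here tells a lost peak in it from a missed one.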
